A study of Mus musculus with 6 samples.

Results

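Immediate early genes are switched on within minutes of a stimulus, without new protein synthesis, and most of their transcripts are short-lived. A fixed list of 41 of them, chosen by name and not by their values, was read in haematopoietic stem cells (HSCs) from Chrm1-/- and wild type mice. One transcript cluster (the array's unit for a gene) was kept for each gene, namely the brightest on average over the 6 arrays among those that carry a single gene symbol, and 40 of the 41 genes had such a cluster, of 22180 genes in all. The cluster of Fosl1 carries several symbols and was not used, and Cyr61 was read under its current symbol, Ccn1. A test was made for genes whose mean signal reached the median of all genes, 6.77 on the log2 scale. Of the list, 34 genes passed that filter, and Egr2, Nr4a3, Gadd45b, Gadd45g, Plk2 and Plk3 lay below it.

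The Chrm1-/- samples, 3 in number, came from C57Bl/6 mice that lack the muscarinic acetylcholine receptor gene Chrm1, and the 3 wild type samples came from C57Bl/6 mice. All were HSCs taken from unchallenged bone marrow and sorted as cells without lineage markers or surface Flt3 that carried Sca1 and cKit, and the RNA was amplified before hybridisation to mouse gene arrays. The labels and design text do not say how the deletion was made, how old the mice were, or whether a sample was 1 mouse or a pool. Nor do they say that replicates were separate mice, so p-values cover only the variation among these 6 samples, part or all of which may be technical. The series as a whole asks how this receptor, acting in the brain, prepares HSCs to leave the marrow through glucocorticoid hormones, and the arrays ask how HSCs without it differ at rest.

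In outline, these genes work as a chain. Kinases of the mitogen-activated protein kinase (MAPK) cascades act on factors that are already present, such as serum response factor (Srf) and its Elk partners and the cAMP response element binding protein, and these switch on the genes of the list. Many of the products are transcription factors themselves (the Fos, Jun, Egr, Nr4a and Klf families), while others close the loop by removing phosphate from the kinases (Dusp) or by speeding the decay of the transcripts (Zfp36). The genes are also known to respond to the handling of cells, including tissue dissociation and sorting.

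The promoters of 7 of these genes are shown for the elements through which the list is known to respond. All but that of Jun hold an exact match to such an element. A further reason is that most of the 7 had their highest value on the same array, which is described further on. The printed sequences are the 250 bases before the transcription start in RefSeq on GRCm38.p6, 5′ to 3′ on the strand of the gene. Capitals mark matches to the CArG box, the element bound by Srf, and to TGACGT or its reverse complement, the core of the cAMP response element TGACGTCA. Srf lies at chr17:46556163-46556412, minus strand, Dusp5 at chr19:53528895-53529144, plus strand, and Zfp36 at chr7:28379229-28379478, minus strand. These 3 promoters hold CArG boxes.

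Srf: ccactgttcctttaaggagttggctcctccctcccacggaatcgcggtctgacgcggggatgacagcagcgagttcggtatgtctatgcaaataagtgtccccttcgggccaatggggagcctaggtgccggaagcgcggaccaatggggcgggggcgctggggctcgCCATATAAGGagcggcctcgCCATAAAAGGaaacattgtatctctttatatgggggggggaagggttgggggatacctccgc

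Dusp5: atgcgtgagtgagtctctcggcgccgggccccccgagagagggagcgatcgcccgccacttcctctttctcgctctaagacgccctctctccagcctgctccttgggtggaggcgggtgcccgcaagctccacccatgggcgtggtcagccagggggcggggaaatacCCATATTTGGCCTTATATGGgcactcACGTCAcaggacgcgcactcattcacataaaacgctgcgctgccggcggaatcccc

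Zfp36: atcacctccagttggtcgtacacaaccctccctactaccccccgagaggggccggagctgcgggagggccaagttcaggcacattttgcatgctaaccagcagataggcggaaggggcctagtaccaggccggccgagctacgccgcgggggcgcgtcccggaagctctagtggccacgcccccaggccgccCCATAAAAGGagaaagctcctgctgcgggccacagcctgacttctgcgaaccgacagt

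Fos lies at chr12:85473640-85473889, plus strand, Dusp1 at chr17:26508473-26508722, minus strand, and Ppp1r15a at chr7:45526269-45526518, minus strand. These 3 hold the cAMP response element or its core. The promoter of Jun, at chr4:95052223-95052472, minus strand, holds no exact match to the motifs searched, and variant sites were not searched.

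Fos: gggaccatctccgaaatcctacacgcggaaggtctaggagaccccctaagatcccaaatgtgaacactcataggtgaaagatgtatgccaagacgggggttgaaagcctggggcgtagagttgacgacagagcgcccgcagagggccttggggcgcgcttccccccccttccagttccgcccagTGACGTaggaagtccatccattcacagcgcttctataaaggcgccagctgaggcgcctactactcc

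Dusp1: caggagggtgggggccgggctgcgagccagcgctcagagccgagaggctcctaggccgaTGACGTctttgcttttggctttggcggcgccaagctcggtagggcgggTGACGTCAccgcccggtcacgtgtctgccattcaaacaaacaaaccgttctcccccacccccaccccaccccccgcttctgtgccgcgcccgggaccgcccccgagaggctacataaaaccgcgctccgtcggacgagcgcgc

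Ppp1r15a: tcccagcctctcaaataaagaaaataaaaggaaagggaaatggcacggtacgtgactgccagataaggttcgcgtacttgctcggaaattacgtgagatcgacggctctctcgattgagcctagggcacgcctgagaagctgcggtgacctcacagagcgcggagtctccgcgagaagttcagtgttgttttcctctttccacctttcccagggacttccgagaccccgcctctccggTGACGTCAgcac

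Jun: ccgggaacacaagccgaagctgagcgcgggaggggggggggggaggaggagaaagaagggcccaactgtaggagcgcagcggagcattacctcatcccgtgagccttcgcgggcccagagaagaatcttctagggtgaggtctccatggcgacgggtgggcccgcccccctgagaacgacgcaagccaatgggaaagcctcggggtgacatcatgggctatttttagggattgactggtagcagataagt

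Srf holds a pair of CArG boxes, which begin 82 and 62 bases before the start. Dusp5 has its pair side by side, beginning 82 and 72 bases before the start, with a core element at 56. The single box of Zfp36 begins 58 bases before the start, and the core element of Fos begins at 66. The full TGACGTCA begins 143 bases before the start in Dusp1 and 12 bases before it in Ppp1r15a. The search covered both strands of windows from 250 bases before to 50 after each start. Windows were found for 34 members; Dusp4, Egr1, Egr3, Fosl1, Ier2, Klf10 and Zfp36l2 had none. A CArG box was found for 4 of these 34 genes (11.8%), Egr2 being the fourth, against 1.81% of all 27025 genes with a window. The full TGACGTCA was found for 4 (11.8%), namely Dusp1, Maff, Plk2 and Ppp1r15a, against 2.03% of all genes. The core element, which every full element contains, was found for 11 (32.4%), against 8.37% of all genes. The AP-1 motif TGANTCA, the site of Fos and Jun dimers, was found for 2 members (5.88%), Csrnp1 and Zfp36l1, against 8.97% of all genes, and the Egr motif GCGTGGGCG for 1 (2.94%), Maff, against 0.707%. These are matches of letters and not measured binding. Variant sites and sites outside the windows were not searched, so a gene without a match here, Fos for the CArG box included, may still hold such an element.

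The arrays as a whole gave little that separated the genotypes. Array medians lay between 6.49 and 6.57, and of 11094 genes tested with limma, 0 (0%) passed an adjusted p of 0.05, while 332 had an unadjusted p below 0.05. Chrm1 itself read 8.16, 7.52 and 7.58 in Chrm1-/-, against 7.45, 7.44 and 7.67 in wild type; neither the probed nor the deleted part of the gene is stated, so this level checks nothing about the labels. Of 13 HSC marker genes, 12 were measured and passed the signal filter. So did 6 of 12 listed granulocyte and 7 of 12 listed erythroid markers, so passing the filter does not test the sort. Of the 12 tested HSC markers, 6 had a higher and 6 a lower mean in Chrm1-/-, with a median difference of 0. Kit averaged 10.88 in Chrm1-/- and 10.90 in wild type. Procr, a surface receptor of HSCs, read 8.16, 8.19 and 8.24 in Chrm1-/- against a lowest value of 8.40 and a mean of 8.45 in wild type, so that the groups did not overlap, and its difference of -0.25 ± 0.10 (SE) did not pass in limma (unadjusted p = 0.0393, adjusted p = 0.996). Slamf1, a further HSC surface marker, read 7.18, 7.02 and 8.44 in Chrm1-/- against 8.04, 7.87 and 7.86 in wild type, so that Chrm1-/- replicate 3 stood apart from the other Chrm1-/- arrays. Fgd5, of the same list, had a higher mean in Chrm1-/-, with a difference of 0.38 ± 0.23 (SE). Wild type replicate 2 stood apart in the heat shock genes Hspa1a and Hspa1b, as described at the end. An identical value on at least 3 of the 6 arrays occurred for 9.74% of tested genes and for 1 of the 34 members, Fos. Since probes differ in how brightly they bind, signals are compared between arrays for one gene and not between genes.

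Across the list, 25 of the 34 tested genes had a higher mean signal in Chrm1-/- and 9 had a lower one, while 5545 of all 11094 tested genes were higher. The median difference, Chrm1-/- minus wild type, was 0.062 on the log2 scale, against 0.00 for all tested genes. In limma 0 members passed the adjusted threshold, and each had an adjusted p of 0.996. At an unadjusted p below 0.05 there was 1 member, Ier3, which is 2.94% of the list, against 2.99% of all tested genes. The 3 arrays of one genotype lay wholly above or below the 3 of the other for 2 members, Ier3 and Rhob, or 5.88%, against 5.79% of all tested genes. Both shares were close to those of the array as a whole. In the clusters used, no member differed by 1.5-fold or more, a size that 4.31% of tested genes reached. A further cluster of Tiparp, which was not tested, did exceed that size, at 0.77 on the log2 scale. The count of higher members rested in part on single arrays, and was 19 of 34 without Chrm1-/- replicate 3 and 24 of 34 without wild type replicate 2. Ier3 reached an unadjusted p below 0.05 in only 1 of the 6 fits that left out an array, the one without Chrm1-/- replicate 2.

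**Figure D1:**
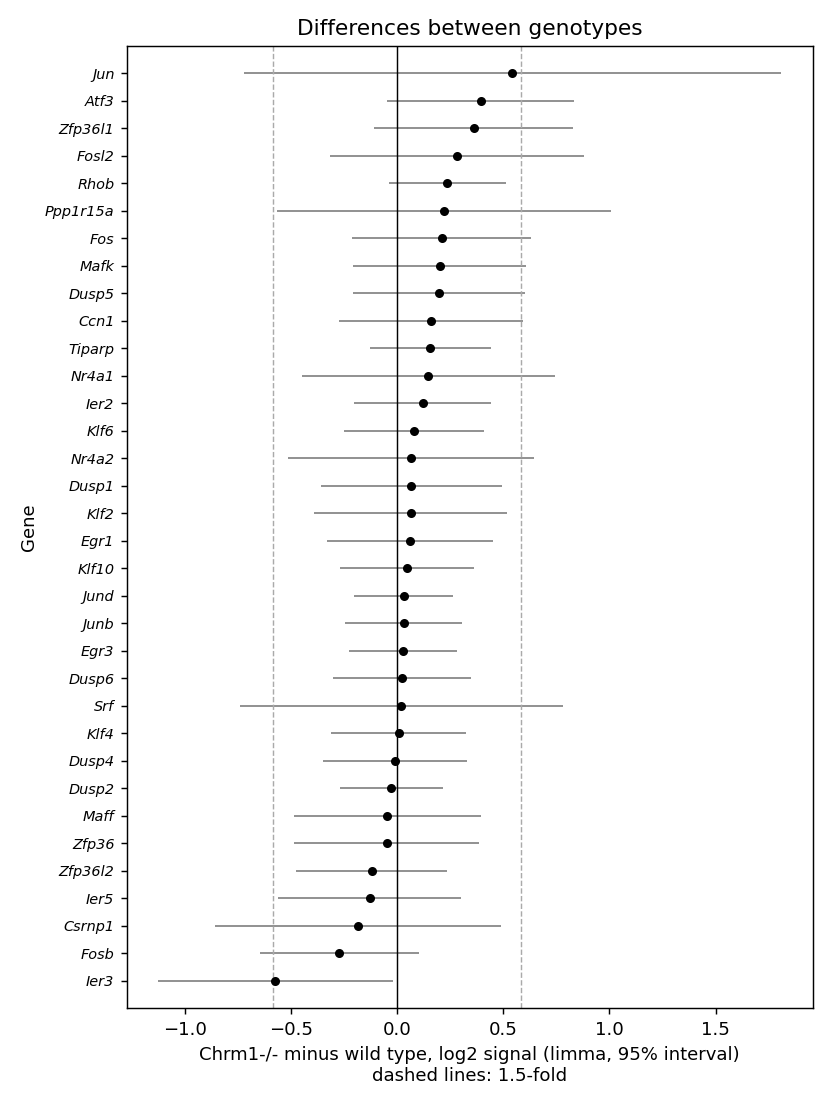
Difference in log2 signal, Chrm1-/- minus wild type, for each of the 34 tested immediate early genes, with the 95% interval from limma (3 arrays per genotype); dashed lines mark 1.5-fold. The point estimates run from -0.57 for Ier3 to 0.54 for Jun, and the interval of Ier3 alone leaves out 0.

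The Fos proteins pair with Jun proteins to form the transcription factor AP-1. Fos read 7.75, 7.69 and 8.22 on the Chrm1-/- arrays, against 7.53, 7.75 and 7.75 on those of wild type. The groups overlapped and the highest value was that of Chrm1-/- replicate 3. The difference was 0.21 ± 0.17 (SE), and 0.043 without that replicate. Fosb leaned the other way, at 7.95, 7.63 and 7.81 in Chrm1-/- against 7.83, 8.23 and 8.15 in wild type. Wild type replicate 1 lay among the Chrm1-/- values, and the difference of -0.27 ± 0.15 (SE) did not pass in limma (unadjusted p = 0.125). Fosl2, which encodes Fra-2, read 6.92, 7.81 and 7.22 in Chrm1-/- against 6.82, 7.19 and 7.10 in wild type, with Chrm1-/- replicate 2 apart from the others.

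Jun had the widest spread of the list. It read 7.19, 7.98 and 9.37 in Chrm1-/-, against 7.72, 7.57 and 7.62 in wild type. Chrm1-/- thus held both its lowest and its highest value, while the wild type arrays lay close together. Its means were 8.18 ± 1.10 in Chrm1-/- and 7.64 ± 0.08 in wild type (SD, n = 3 each). The 95% interval of the difference, 0.54, ran from -0.72 to 1.81, and the difference was -0.052 without Chrm1-/- replicate 3. The spread of Jun around the genotype means lay at percentile 97.2 of all tested genes. Its relatives were steady in the clusters used. Junb read 7.37, 7.53 and 7.42 in Chrm1-/- against 7.30, 7.53 and 7.40 in wild type, and Jund, which most cells express without a stimulus, read 8.61, 8.62 and 8.62 against 8.57, 8.54 and 8.65. The spread of Jund lay at percentile 1.67. A further Jund cluster was less steady, at 7.11, 7.61 and 7.70 in Chrm1-/- against 7.68, 7.33 and 7.61 in wild type. Chrm1-/- held its lowest and its highest value. That cluster differed by -0.067, against 0.03 for the cluster used.

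Srf, the factor that binds CArG boxes and whose own promoter above holds a pair of them, ordered the Chrm1-/- arrays as Jun did. It read 7.11, 7.57 and 8.38 in Chrm1-/- and 7.64, 7.63 and 7.73 in wild type. Again the lowest and highest values were both in Chrm1-/-, and the wild type arrays differed little. The genotype means were 7.69 ± 0.64 in Chrm1-/- and 7.67 ± 0.06 in wild type (SD, n = 3 each), a difference of 0.02 with a 95% interval from -0.74 to 0.78. Atf3, a stress-induced factor that can pair with Jun, read 6.79, 7.25 and 7.37 in Chrm1-/- against 6.90, 6.63 and 6.70 in wild type. Chrm1-/- replicate 1 lay within the wild type range. The difference was 0.39 ± 0.18 (SE; unadjusted p = 0.0721 in limma), and without Chrm1-/- replicate 1 it was 0.57, with an adjusted p of 0.989.

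The zinc finger factors of the Egr family showed little difference. Egr1 read 8.23, 8.30 and 7.98 in Chrm1-/- against 7.88, 8.34 and 8.11 in wild type, so the groups overlapped throughout. The 95% interval of its difference, 0.06, ran from -0.33 to 0.45. Egr3 differed by 0.027 ± 0.10 (SE). Egr2, whose promoter windows also hold a CArG box, averaged 6.68 ± 0.04 in Chrm1-/- and 6.65 ± 0.18 in wild type (SD, n = 3 each), below the signal filter.

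The Nr4a genes encode orphan nuclear receptors, of which Nr4a1 and Nr4a3 are known in mice for restraining HSC proliferation. Nr4a1 read 7.97, 8.38 and 8.32 in Chrm1-/- against 7.92, 7.74 and 8.57 in wild type, and wild type replicate 3 held the highest value. The difference was 0.15 ± 0.25 (SE); it was 0.39 without that replicate and -0.022 without wild type replicate 2. Nr4a2 read 7.08, 7.09 and 7.63 in Chrm1-/- against 6.92, 7.60 and 7.08 in wild type, 1 array of each genotype standing above the rest. Nr4a3, below the filter, averaged 6.55 ± 0.28 in Chrm1-/- and 6.41 ± 0.28 in wild type (SD, n = 3 each).

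All 4 Krüppel-like factor genes had slightly higher means in Chrm1-/-, with differences from 0.0067 to 0.08, all smaller than their standard errors. Klf2, a factor of quiescent lymphocytes and endothelium, read 8.05, 8.38 and 7.94 in Chrm1-/- against 8.27, 8.15 and 7.76 in wild type. Klf4 read 7.44, 7.49 and 7.46 in Chrm1-/- against 7.25, 7.47 and 7.65 in wild type, with all Chrm1-/- values inside the wild type range; its difference, 0.0067, was -0.012 after a further quantile normalization and -0.097 without wild type replicate 1. Klf6 read 8.24, 8.33 and 8.64 against 8.30, 8.29 and 8.38. For these genes too the groups overlapped, with Klf6 highest on Chrm1-/- replicate 3. The differences also turned on single arrays, to -0.087 for Klf2 without wild type replicate 3 and to -0.038 for Klf6 without Chrm1-/- replicate 3. Klf10, induced by transforming growth factor beta, differed by 0.047 ± 0.13 (SE).

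**Figure D2:**
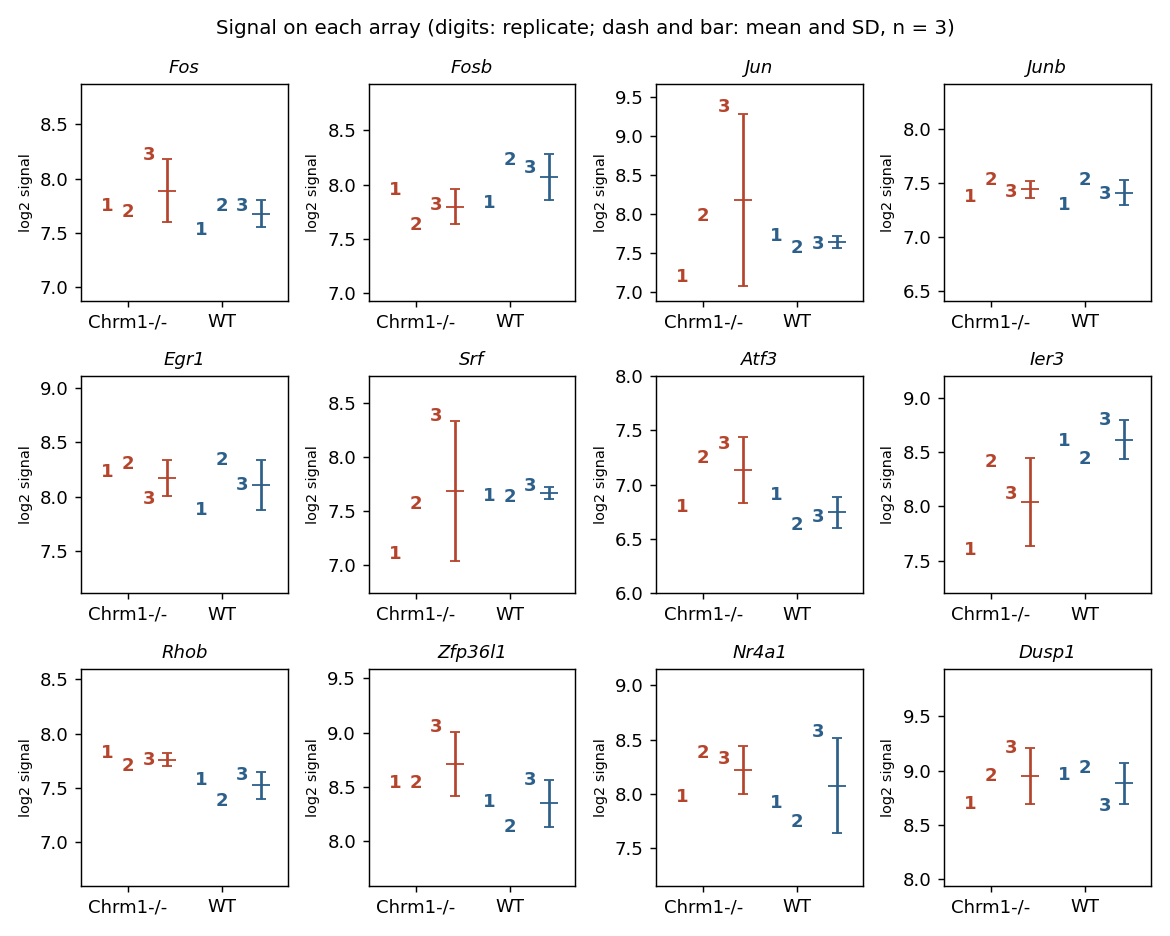
Log2 signal of 12 immediate early genes on each array, Chrm1-/- left and wild type right, with digits for the replicate and the mean and SD (n = 3) beside them; the axes span at least 2 log2 units and differ between genes. Jun and Srf spread widely over the Chrm1-/- arrays and little over the wild type arrays, and only Ier3 and Rhob of these 12 had groups that did not overlap.

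Of the genes named for an immediate early response, Ier3 was the one with the clearest difference. Ier3, which modulates cell survival and signalling by NF-kB and by the MAPK ERK, read 7.60, 8.41 and 8.11 in Chrm1-/-, against 8.60, 8.44 and 8.80 in wild type. All 3 Chrm1-/- arrays lay below all wild type arrays, but Chrm1-/- replicate 2 by only a small margin. The means were 8.04 ± 0.41 in Chrm1-/- and 8.61 ± 0.18 in wild type (SD, n = 3 each). The difference was -0.57 ± 0.23 (SE), with a 95% interval from -1.13 to -0.021, and did not pass after adjustment in limma (unadjusted p = 0.0440, adjusted p = 0.996). It was -0.35 without Chrm1-/- replicate 1 and -0.76 without Chrm1-/- replicate 2. Ier2 read 7.59, 7.46 and 7.34 in Chrm1-/- against 7.33, 7.19 and 7.51 in wild type, overlapping groups with a difference of 0.12 ± 0.13 (SE). Ier5 differed by -0.13 ± 0.18 (SE).

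Rhob, a small GTPase that acts on actin and on endosomes, was the other gene whose groups did not overlap. It read 7.82, 7.70 and 7.76 in Chrm1-/- against 7.57, 7.38 and 7.62 in wild type. The 3 Chrm1-/- arrays lay above the wild type arrays, the nearest values being 7.70 and 7.62. The difference was 0.24 ± 0.11 (SE) and did not pass in limma (unadjusted p = 0.0799, adjusted p = 0.996). Gadd45b, a stress-response gene below the signal filter, was not part of this test; it read 6.14, 6.30 and 6.14 in Chrm1-/- against 6.50, 6.36 and 6.50 in wild type, and its groups did not overlap either. Gadd45g, its relative, averaged 6.25 ± 0.44 in Chrm1-/- and 6.28 ± 0.07 in wild type (SD, n = 3 each).

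The Dusp genes encode phosphatases that switch MAPKs off. Dusp1, which acts mainly on p38 and JNK in the nucleus, read 8.69, 8.95 and 9.21 in Chrm1-/- against 8.96, 9.02 and 8.67 in wild type, with overlapping groups and a difference of 0.067 ± 0.18 (SE). Dusp5, a nuclear phosphatase of ERK, read 7.57, 7.68 and 7.84 in Chrm1-/- against 7.65, 7.66 and 7.19 in wild type. Wild type replicate 3 was the low value, and the difference was 0.20 ± 0.17 (SE). Dusp6, a cytoplasmic ERK phosphatase often read as a gauge of ERK activity, averaged 11.52 ± 0.07 in Chrm1-/- and 11.50 ± 0.20 in wild type (SD, n = 3 each). The 95% interval of its difference, 0.023, ran from -0.30 to 0.35, and a further Dusp6 cluster differed by 0.15. Dusp2 and Dusp4 differed by -0.027 and -0.01. The 5 phosphatase genes thus had 3 higher and 2 lower means, none beyond 0.20.

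Proteins of the Zfp36 family bind AU-rich elements in transcripts and promote their decay. Zfp36, or tristetraprolin, read 10.76, 10.22 and 10.74 in Chrm1-/- against 10.50, 10.62 and 10.75 in wild type. Chrm1-/- replicate 2 was the low value, and the difference of -0.05 ± 0.18 (SE) was 0.13 without it. Zfp36l1 read 8.54, 8.54 and 9.05 in Chrm1-/- against 8.36, 8.13 and 8.56 in wild type. Its highest value was that of Chrm1-/- replicate 3, the other Chrm1-/- arrays overlapped with wild type, and the difference was 0.36 ± 0.19 (SE; unadjusted p = 0.110 in limma). A further Zfp36l1 cluster differed by 0.027. Zfp36l2, a gene required in mice for HSCs to be maintained, differed by -0.12 ± 0.15 (SE).

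The remaining members act in stress responses, in transcription or outside the cell. Ppp1r15a, the GADD34 subunit that directs a phosphatase to the translation factor eIF2 alpha, read 8.93, 8.78 and 9.58 in Chrm1-/- against 8.53, 9.47 and 8.63 in wild type. One array of each genotype was high, Chrm1-/- replicate 3 and wild type replicate 2. Tiparp, an ADP-ribosyltransferase induced through the aryl hydrocarbon receptor, differed by 0.16 ± 0.12 (SE) in the cluster used. A further Tiparp cluster disagreed in size, with a difference of 0.77, which is beyond 1.5-fold. Its means were 8.23 in Chrm1-/- and 7.46 in wild type, with a wild type value as low as 6.42. The small Maf genes Maff and Mafk differed by -0.047 and 0.20, Csrnp1, a nuclear protein induced through Axin, by -0.18, and Ccn1, a secreted matrix protein, by 0.16. Plk2, a kinase of the polo family, ranged widely in both genotypes, from 6.09 to 7.16 in Chrm1-/- and from 6.37 to 7.49 in wild type, and with its relative Plk3 lay below the signal filter.

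The 95% interval of the difference lay within 1.5-fold in both directions for 19 of the 34 genes (55.9%), Egr1, Dusp1, Dusp6, Junb and Jund among them, against 53.3% of all tested genes. It lay within 2-fold for 31 (91.2%), against 83.7% of all tested genes. The 3 exceptions were Jun, Ier3 and Ppp1r15a, for which the arrays do not bound the difference within 2-fold. The median spread around the genotype means was 0.22 for the members and 0.22 for all tested genes.

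**Figure D3:**
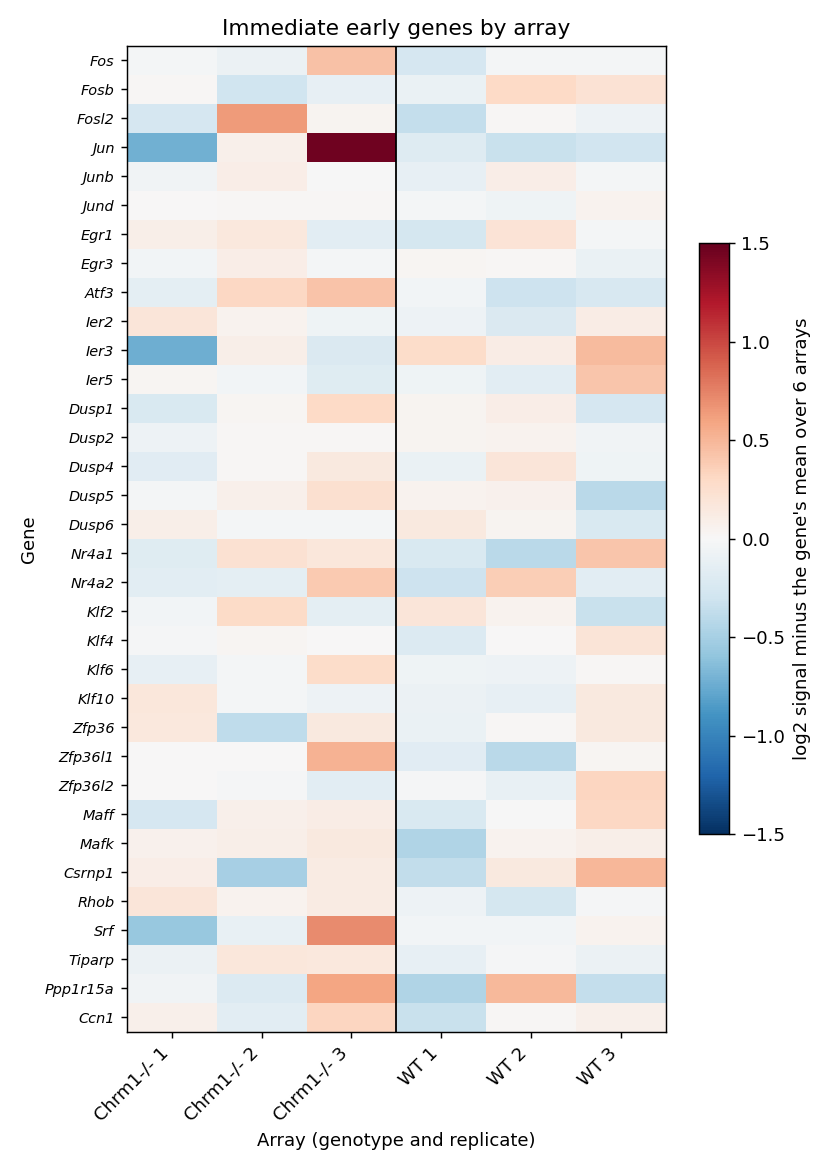
Log2 signal of each of the 34 tested immediate early genes on each array, less the gene's own mean over the 6 arrays, Chrm1-/- left of the line and wild type right. Red is above and blue below the mean; the column of Chrm1-/- replicate 3 has its darkest cells at Jun and Srf, and that of wild type replicate 1 is mostly pale blue.

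Whether the genes moved together was read from each gene less its own mean over the 6 arrays. On Chrm1-/- replicate 3, 22 of the 34 genes lay above their own mean and the median deviation was 0.12. On Chrm1-/- replicates 1 and 2, 14 and 21 genes did, with medians of -0.034 and 0.024. On wild type replicate 1, 7 of the 34 lay above their own mean, with a median of -0.10. Wild type replicates 2 and 3 had 19 and 17 above, with medians of 0.015 and -0.0025. Chrm1-/- replicate 3 and wild type replicate 1 thus stood at the ends, with arrays of both genotypes mixed between them. After median centring, Chrm1-/- replicate 3 was still the highest, at 0.13, but wild type replicates 1 and 3 lay close together at the low end, at -0.054 and -0.056. For all tested genes, 51.0% lay above their own mean on Chrm1-/- replicate 3 and 48.8% on wild type replicate 1. As many as 12 members (35.3%) had their single highest value on Chrm1-/- replicate 3, against 17.4% of all tested genes. They were Fos, Jun, Atf3, Dusp1, Dusp5, Nr4a2, Klf6, Zfp36l1, Mafk, Srf, Ppp1r15a and Ccn1. Of the 7 genes whose promoters are printed above, 6 are in that set and Zfp36 is not; those promoters were picked with this in view. The 10 members lowest on wild type replicate 1 included Fos, Egr1, Mafk, Ppp1r15a and Ccn1.

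**Figure D4:**
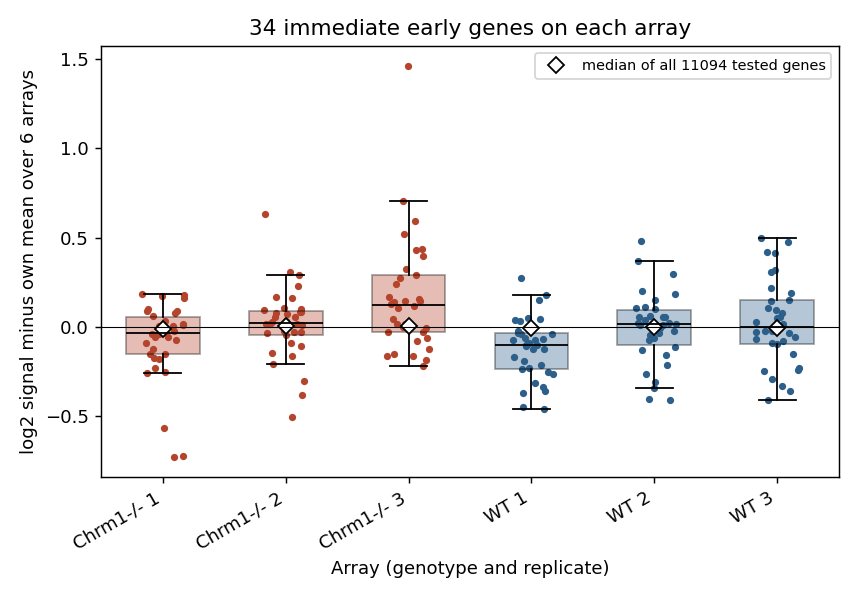
Deviation of each of the 34 tested immediate early genes from its own mean over the 6 arrays (log2), by array, Chrm1-/- left and wild type right; boxes show the quartiles and median, whiskers reach the farthest gene within 1.5 times the box length, and open diamonds show the median of all 11094 tested genes. The list's median is highest on Chrm1-/- replicate 3, at 0.12, and lowest on wild type replicate 1, at -0.10, while the diamonds stay near 0.

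The pairwise view gave a weak tendency. Over the 6 arrays, the median Pearson correlation of the 561 pairs of members was 0.158, and 60.1% of pairs were positive, against a median of 0.002 and 50.1% over all pairs of tested genes. After removal of the genotype means, the median was 0.139 and 59.2% were positive. Pairs above 0.8 made up 4.46% of member pairs and 3.15% of all pairs. After removal of the genotype means these shares were closer, at 6.24% and 5.58%. All pairs share the same 6 arrays and their normalization, and these values are a description without a test.

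Genes around the list were read from 4 lists that share no gene with it. MAPK cascade genes, from Ras and Raf to the kinases, had 17 of 25 measured and tested, with 6 higher and 11 lower in Chrm1-/-, a median difference of -0.027 and 0 at an unadjusted p below 0.05 in limma. The adaptor gene Grb2 differed by -0.19 ± 0.13 (SE). Of the factors that act upstream, 16 of 18 were tested, with 13 higher and 3 lower, a median of 0.097 and likewise 0 at an unadjusted p below 0.05. Elk3, a partner of Srf, read 9.41, 9.18 and 9.61 in Chrm1-/- against 8.39, 9.13 and 9.27 in wild type, and wild type replicate 1 was the low value. Feedback inhibitors had 12 of 19 tested, 6 higher and 6 lower, with the Ras pathway inhibitor Spred2 at -0.28 ± 0.18 (SE). Other early response genes had 22 of 36 tested, 17 higher and 5 lower, with a median of 0.068. Among these 22 only the chemokine gene Ccl3 reached an unadjusted p below 0.05, at 7.69, 7.78 and 8.12 in Chrm1-/- against 7.43, 7.14 and 7.15 in wild type, a difference of 0.62 ± 0.16 (SE) that did not pass after adjustment (adjusted p = 0.996 in limma). No gene of these 4 lists passed the adjusted threshold in limma.

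Among the heat shock genes, known to respond to handling stress, the pair Hspa1a and Hspa1b singled out wild type replicate 2. Hspa1b, which encodes the inducible chaperone Hsp70, read 5.91, 5.73 and 5.35 in Chrm1-/-, against 5.37, 11.11 and 5.79 in wild type. Hspa1a, its close copy, read 5.25, 4.99 and 4.85 in Chrm1-/-, against 4.90, 8.72 and 4.95 in wild type. Both genes were far higher on wild type replicate 2 than on the other 5 arrays, and for both genes the mean over the 6 arrays lay below the signal filter, so neither was tested. The 2 genes are near-identical, so their signals may not be independent. On the same array 7 of 9 tested heat shock genes lay above their own mean, with a median deviation of 0.042. The 2 others, Bag3 and Hspb1, had their lowest value of the 6 arrays there, at 7.78 and 6.78. Of the immediate early genes, Fosb, Egr1, Dusp2 and Dusp4 had their highest value on that array, while 19 of 34 members lay above their own mean. Ppp1r15a, at 9.47, and Nr4a2, at 7.60, were also high there, while 7 members, Atf3, Ier2, Nr4a1 and Rhob among them, were lowest there. The part of this array's Hspa1a and Hspa1b signal in the levels of the immediate early genes was not tested. Without this array the difference between genotypes was -0.193 for Fosb and 0.175 for Egr1, against -0.273 and 0.06 with all arrays. It was 0.337 for Atf3, 0.043 for Ier2, -0.022 for Nr4a1 and 0.165 for Rhob, against 0.393, 0.12, 0.147 and 0.237.

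The other lists were set beside the arrays at the ends. On Chrm1-/- replicate 3, where 22 of 34 immediate early genes (64.7%) lay above their own mean, 11 of 17 MAPK cascade genes (64.7%, median deviation 0.05) did so, as did 5 of 7 erythroid markers, 7 of 12 HSC markers, 5 of 9 heat shock genes and 11 of 22 other early response genes (median -0.0092). On that array 3 of 8 monocyte and macrophage markers and 1 of 6 granulocyte markers lay above their own mean. On wild type replicate 1, where 7 of 34 immediate early genes did, 10 of 17 MAPK cascade genes, 5 of 7 erythroid markers, 7 of 12 HSC markers, 2 of 9 heat shock genes and 7 of 22 other early response genes lay above their own mean. There 0 of 8 monocyte and macrophage markers and 3 of 6 granulocyte markers did. The mean level of the 8 monocyte and macrophage markers on an array ran from 7.88 to 8.34 in Chrm1-/- and from 7.91 to 8.28 in wild type. Of these 8 markers, 5 had a higher and 3 a lower mean in Chrm1-/-, with a median difference of 0.11. Among the lower, the macrophage gene Cd68 read 8.47, 8.16 and 8.19 in Chrm1-/- against values between 8.79 and 10.25 in wild type. Its groups did not overlap, and its difference of -1.07 ± 0.39 (SE) did not pass in limma (unadjusted p = 0.0309, adjusted p = 0.996). Granulocyte markers had list means from 8.56 to 8.80 in Chrm1-/- and from 8.74 to 8.89 in wild type. The part of these other genes in the pattern was not tested.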

How the data were processed

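Gene expression was measured on 6 arrays of sorted bone marrow HSCs, 3 Chrm1-/- and 3 wild type, with genotypes from the labels. The authors used the Affymetrix analysis software, per the series design text; no source used here states its version, summarization or normalization. That the deposited values are log2 signals was read from their range, 3.02 to 13.67, since the table names no scale. It holds no detection calls, so a signal above background cannot be stated. The number of arrays limits the precision.

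Of 41345 transcript clusters, 23521 had 1 symbol in the platform annotation and were kept, 1814 had several and 16010 had none there. The difference Chrm1-/- minus wild type was tested in limma 3.58.1 (lmFit, then eBayes; R 4.3.3) on the 11094 genes at or above the median signal, two-sided, with Benjamini-Hochberg adjustment over all of them and a threshold of 0.05. The test was tested on simulated data. Same-numbered arrays were not paired: their deviations from the genotype means correlated across genes at -0.031, 0.0088 and -0.011. Per-array values are given for a fixed set of 13 members and for every member with an unadjusted p below 0.05, groups that did not overlap or a 1.5-fold difference. Other members were added after their values were seen. From other lists, genes among the 4 of smallest p were named. Exceptions were Kit and Hspb1, which are not among those, and Hspa1a and Hspa1b, which were not tested and have no p. Members and lists were chosen with earlier results of these data known. Promoters are from RefSeq on GRCm38.p6, and the build of the array annotation is not given. Plots used matplotlib 3.10.9.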

Additional observations from a re-analysis of the deposited data

How the results depend on the processing

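The alternatives tried were no signal filter, a filter at the 75th percentile, quantile normalization on top of the authors' own, centring on array medians, averaging a gene's clusters, an intensity trend with a robust prior, no moderation, the replicate number as a block, and leaving out each array. No member passed the adjusted threshold in any of these limma fits; 1 gene of the array, no member, did without moderation, and 0 to 1 did when single arrays were left out. The number of members at an unadjusted p below 0.05 was 1 as reported, beside 332 of all 11094 tested genes. With no filter it was 2 of 40 (5%), Ier3 and Gadd45b, against 2.56% of 22180 genes. It was 0 with the intensity trend, beside 317 genes of the array, and 0 with the replicate number as a block, beside 396. On leaving out arrays it was 0 to 1, beside 335 to 522 genes. Without moderation the 1 member was Rhob in place of Ier3, beside 253 genes. The cause was not tested. With the 75th percentile filter 11 members were higher, of the 14 then tested. On leaving out arrays the number higher ran from 19 to 26 of 34 and the median difference from 0.03 to 0.0875. The share of all genes with a higher mean was not computed for that filter or for these refits. Median deviations per array moved by less than the spread between replicates under the other filters, scalings and cluster rule, yet median centring took wild type replicate 1 to -0.054 and wild type replicate 3 to -0.056, so which array was lowest changed. Klf4 turned to -0.012 with quantile normalization. Leaving out arrays turned the sign of 9 named members, with ranges from -0.052 to 1.04 for Jun, -0.025 to 0.09 for Junb, -0.055 to 0.175 for Egr1, -0.063 to 0.197 for Dusp1, -0.022 to 0.39 for Nr4a1, -0.087 to 0.17 for Klf2, -0.097 to 0.103 for Klf4, -0.038 to 0.16 for Klf6 and -0.143 to 0.127 for Zfp36. All the fits, the main one included, assume that both genotypes vary alike. For Jun the SDs were 1.10 in Chrm1-/- and 0.08 in wild type, and for Srf 0.64 and 0.06. The intervals of these genes rest on a spread pooled over both genotypes. The 3 arrays in each genotype limit what can be bounded.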
